A study of Mus musculus with 8 samples.

Results

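The suprachiasmatic nucleus (SCN), the paired nucleus of the hypothalamus that keeps circadian time in mammals, was compared around subjective dusk and around subjective dawn. All 8 libraries of the series entered: 4 around dusk, at circadian time (CT) 10 and 16 of each of 2 cycles, and 4 around dawn, at CT22 and CT4 of each cycle. A rule on the time labels chose these libraries and used no measured value. The mice were C57/BL6 with no stated genotype or treatment, had been held in 12 h of light and 12 h of darkness per day for 3 weeks, and were in complete darkness when tissue was taken every 6 h. By the labels the groups differ only in the time of collection. Within each cycle the dusk libraries came later in darkness than the dawn libraries. The titles give hours 22 and 28 (dawn) then 34 and 40 (dusk) in the first cycle. In the second they give 46 and 52 (dawn) then 58 and 64 (dusk). Circadian phase and time spent in darkness therefore cannot be fully told apart. Each library is polyadenylated RNA of 3 mice pooled in equal amounts, and the labels state no replicates, so the spread below is that between pooled libraries of a group and may be partly technical. By the labels sampling started at CT18, whereas the earliest title reads CT22; the times below follow the titles. The contrast of day (CT4 and CT10) with night (CT16 and CT22) crosses that of dusk with dawn and was kept as a further term in the models.

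In each SCN neuron, CLOCK and BMAL1 (encoded by Arntl) bind E-box sequences and switch on the Per and Cry genes, whose proteins return to shut that activity down, while REV-ERB and ROR proteins act in turn on Arntl. The same machinery drives output genes, among them secreted peptides such as vasopressin and prokineticin 2. The libraries here are polyadenylated RNA, and the origin of their intron reads was not tested. Reads within introns can come from RNA not yet spliced. Such reads would lie nearer in time to transcription than reads over whole genes, which follow stable mature RNA. For that reason gene counts, intron counts and splice-junction counts were read side by side.

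Sense gene reads came to 11123610 to 11131890 per library, with 4196931 to 4199146 on introns and 3196136 to 3437120 on junctions. The SCN marker Vip, the vasoactive intestinal peptide gene of ventral SCN neurons, was present throughout, at 222 to 249 CPM (reads scaled to a common library size) around dusk and 189 to 375 CPM around dawn. Markers of other cells and of neighbouring tissue varied between libraries, and their part in the results below was not tested beyond the fits with an oligodendrocyte score. The summed level of 14 oligodendrocyte markers was 8272 to 16085 CPM around dusk and 5142 to 10612 CPM around dawn, with CT4 of the first cycle lowest. Summed pituitary markers stood at 119 CPM in the CT22 library of the first cycle and at 2.64 to 8.23 CPM in all others. In bulk tissue, fewer cells of a type and less RNA per cell cannot be told apart.

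At the level of gene counts, 3 of 15217 tested genes passed an adjusted p of 0.05 by edgeR (0.0197%), and all of these were lower around dusk. They are Rgs16, Fabp7 and Rasl11b. Without a correction for multiple tests 1193 genes had p under 0.05 (7.84%), 639 of them higher (4.2%) and 554 lower around dusk (3.64%), and DESeq2 called 39 genes (0.256%), 10 higher (0.0657%) and 29 lower (0.191%). The same 3 genes were among those called in each of the 8 fits that left out a library, but the number of calls rose to 60 without CT16 of the first cycle, 6 without CT22 of the first cycle and 5 without CT22 of the second.

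Rgs16 encodes a GTPase-activating protein that ends signalling by Gi-type G proteins and, in mouse SCN neurons, holds back the inhibition of cyclic AMP. Its gene count (ENSMUSG00000026475, mm9 chromosome 1, 155587463-155592781) was 137 and 148 CPM at CT10 and 80.3 and 81.9 CPM at CT16, against 152 and 203 CPM at CT22 and 268 and 304 CPM at CT4. All dusk libraries were below all dawn libraries, and the step lay mostly between CT16 and CT4, which differed by -1.81 on the log2 scale, while CT10 and CT22 differed by -0.30. The fitted difference was -1.07 ± 0.10 (log2, SE; adjusted p = 0.000142 by edgeR), with -0.94 in the first cycle and -1.17 in the second. Fabp7, the brain fatty acid-binding protein of astrocytes and neural progenitors (ENSMUSG00000019874, chromosome 10, 57504667-57508288), had 43.0 and 33.0 CPM at CT10 and 28.8 and 32.9 CPM at CT16, against 63.6 and 58.9 CPM at CT22 and 87.3 and 90.2 CPM at CT4. Here both pairs of opposite times were apart, and the difference was -1.11 ± 0.11 (log2, SE; adjusted p = 0.000182 by edgeR). Rasl11b, a Ras-like small GTPase gene (ENSMUSG00000049907, chromosome 5, 74591292-74595640), had 24.4 and 22.7 CPM at CT10 and 12.7 and 10.1 CPM at CT16, against 20.4 and 21.6 CPM at CT22 and 53.9 and 64.6 CPM at CT4. The groups overlapped for Rasl11b, with CT10 and CT22 between 20.4 and 24.4 CPM and CT4 alone standing high (difference -1.12 ± 0.13, log2, SE; adjusted p = 0.00177 by edgeR). Rgs16 and Rasl11b were also higher by day (adjusted p = 0.00373 and 0.000454 for the day-night term by edgeR). When that term was left out, the adjusted p of Rgs16 and Rasl11b rose above 0.05 and only Fabp7 remained.

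**Figure D1:**
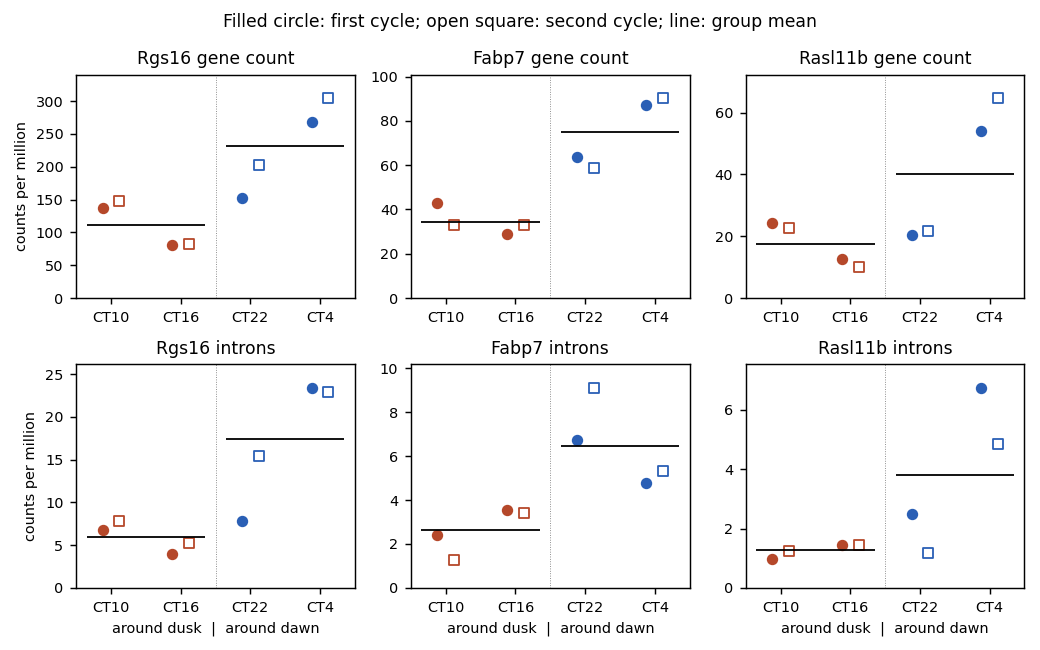
Level in CPM (vertical axis) of Rgs16, Fabp7 and Rasl11b in each library, for the gene count (top) and for the sum over introns (bottom). Filled circles are the first cycle, open squares the second, and lines the mean of the 4 libraries around dusk (CT10 and CT16, left) or around dawn (CT22 and CT4, right); for Rgs16 and Fabp7 every dusk point lies below every dawn point in both rows.

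The RefSeq promoter windows of both genes with the firmest difference are shown so that the clock motifs can be looked for by eye. Each line gives the 250 bases before the annotated start (GRCm38.p6, strand +; Rgs16 at chr1:153740103-153740352, Fabp7 at chr10:57784673-57784922), 5′ to 3′. Capitals mark matches to any of 4 motifs, searched on both strands: the E-box CACGTG, the cyclic AMP response element TGACGTCA, the D-box TTATGTAA and the ROR and REV-ERB element TAGGTCA.
Rgs16: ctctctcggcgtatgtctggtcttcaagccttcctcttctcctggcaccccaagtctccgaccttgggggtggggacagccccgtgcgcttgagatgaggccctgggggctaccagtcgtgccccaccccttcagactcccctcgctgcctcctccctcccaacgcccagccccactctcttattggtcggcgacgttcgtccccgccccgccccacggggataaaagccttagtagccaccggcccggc
Fabp7: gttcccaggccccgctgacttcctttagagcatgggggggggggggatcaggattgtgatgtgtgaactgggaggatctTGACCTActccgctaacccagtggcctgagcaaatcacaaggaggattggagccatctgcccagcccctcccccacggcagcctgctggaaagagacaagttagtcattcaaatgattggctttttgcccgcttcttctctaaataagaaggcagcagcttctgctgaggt
Rgs16 held none of the 4 motifs in this window. Fabp7 held the ROR and REV-ERB element on the opposite strand, 171 to 165 bases before the start. Of 32851 RefSeq windows of this length, 2.23% held that element, 6.02% an E-box, 1.55% the cyclic AMP response element and 0.819% the D-box. A match describes the letters only.

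In the fit reported here more intron sums than gene counts passed, but this order did not hold in every setting. With the oligodendrocyte score as a term 2 intron sums and 4 gene counts passed, and with no filter on low counts 125 and 243. Of 13849 genes with a tested intron sum, 26 passed an adjusted p of 0.05 by edgeR (0.188%), 22 of them lower around dusk (0.159%) and 4 higher (0.0289%). At an unadjusted p under 0.05 there were 1391 (10%), 956 lower (6.9%) and 435 higher (3.14%). The 4 dusk libraries all lay below the 4 dawn libraries for the introns of 539 genes (3.89%) and all above for 197 (1.42%), whereas for gene counts these numbers were 297 below (1.95%) and 253 above (1.66%). DESeq2 called 48 intron sums (0.347%), 30 lower (0.217%) and 18 higher (0.13%), of which 21 were among the 26. It gave no adjusted p for the introns of Avp, Prok2 and Fabp7. Those of Mobp and AK195683 did not pass (adjusted p = 0.127 and 0.228 by DESeq2). Scaled on the intron table itself, 17 passed, 12 lower and 5 higher. The introns that passed depended on single libraries: 68 without CT16 of the first cycle, 28 without CT10 of the first, 13 without CT4 of the first or CT22 of the second, 6 without CT22 of the first, 4 without CT16 of the second, 2 without CT10 of the second and 1 without CT4 of the second. With the oligodendrocyte marker score of each library as a further term, 2 intron sums passed, Rgs16 among them.

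Among the introns that fell were those of 2 genes for secreted SCN peptides, Avp and Prok2. Avp encodes vasopressin, the peptide of many neurons of the dorsal SCN. Its 2 introns (gene ENSMUSG00000037727, mm9 chromosome 2, 130406333-130408304) gave 10 and 31 reads at CT10 and 7 and 14 at CT16, against 29 and 49 at CT22 and 87 and 108 at CT4. The difference was -2.09 ± 0.33 (log2, SE; adjusted p = 0.00896 by edgeR). Intron reads were lowest at CT16 and highest at CT4 in both cycles, and 1 dusk library, CT10 of the second cycle, passed the lowest dawn library. The mature gene count behaved otherwise: 51.3 and 52.8 CPM at CT10 and 12.8 and 22.4 CPM at CT16, against 49.9 and 37.0 CPM at CT22 and 37.8 and 54.3 CPM at CT4. CT16 alone was low, and the gene difference of -0.53 ± 0.25 (log2, SE) did not pass (adjusted p = 0.631 by edgeR). Without CT4 of the second cycle the adjusted p of the Avp introns by edgeR was 0.0864; in the other 7 fits that left out a library it stayed under 0.05. With the oligodendrocyte score as a term the difference was -2.15 and the adjusted p 0.137 by edgeR.

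Prok2 encodes prokineticin 2, a secreted signal from the SCN that in rodents conveys circadian phase to other brain regions. Its 3 introns (gene ENSMUSG00000030069, chromosome 6, 99661178-99676402) gave 7 and 11 reads at CT10 and 3 and 7 at CT16, against 20 and 14 at CT22 and 42 and 77 at CT4. Every dusk library was below every dawn library, on 181 reads in all (difference -2.32 ± 0.43, log2, SE; adjusted p = 0.0195 by edgeR). The gene count was 2.31 and 3.23 CPM at CT10 and 1.64 and 5.37 CPM at CT16, against 3.85 and 0.909 CPM at CT22 and 9.69 and 12.4 CPM at CT4. Its difference of -0.80 ± 0.52 (log2, SE) did not pass (adjusted p = 0.73 by edgeR). The Prok2 intron call was lost in 4 of the 8 fits that left out a library, with an adjusted p by edgeR of 0.225 without CT4 of the second cycle, 0.111 without CT10 of the second, 0.0624 without CT10 of the first and 0.0598 without CT22 of the first. With the oligodendrocyte score as a term it was 0.17 by edgeR (difference -2.53, log2). Part of the Prok2 introns overlaps Gm16748, and without the overlapping introns the difference was -2.27 (adjusted p = 0.0196 by edgeR). A Prok2 junction (chromosome 6, 99662452-99672502) ends at the same base as the intron with most reads (99664476-99672502). It had 0 reads in all 4 dusk libraries and 7 and 0 reads at CT22 and 13 and 10 at CT4. This junction did not pass (adjusted p = 0.815 by edgeR). The ratio of introns to gene count did not pass for Avp (-1.46, log2; adjusted p = 0.355 by limma) or Prok2 (-1.30; adjusted p = 0.422 by limma).

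The promoters of both peptide genes are shown because each holds 1 E-box, the site bound by CLOCK and BMAL1. The windows are again the 250 bases before the RefSeq start on GRCm38.p6, here on strand -, at chr2:130582589-130582838 for Avp and chr6:99726393-99726642 for Prok2, with the E-box in capitals.
Avp: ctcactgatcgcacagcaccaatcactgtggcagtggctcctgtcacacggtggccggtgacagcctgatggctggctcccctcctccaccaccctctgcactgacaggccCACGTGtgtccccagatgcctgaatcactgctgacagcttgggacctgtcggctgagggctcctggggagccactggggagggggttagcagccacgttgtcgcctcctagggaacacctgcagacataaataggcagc
Prok2: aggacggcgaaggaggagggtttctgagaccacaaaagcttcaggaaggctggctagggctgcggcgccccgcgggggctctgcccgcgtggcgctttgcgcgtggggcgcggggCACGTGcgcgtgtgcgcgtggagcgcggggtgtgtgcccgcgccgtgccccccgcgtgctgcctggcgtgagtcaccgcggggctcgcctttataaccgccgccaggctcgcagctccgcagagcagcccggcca
The E-box lies 139 to 134 bases before the start of Avp and 135 to 130 bases before that of Prok2. Of 20 genes with called introns or gene counts whose promoter was matched, 3 held an E-box in at least 1 window, and none held the cyclic AMP response element or the D-box. The third, Epb4.1l1, held it in 1 of 3 windows, and Nr1d1 held none. Over all RefSeq windows 6.02% held an E-box, a share per window that is not directly comparable with a count per gene. Whether the E-boxes have a part in these differences was not tested. In the other matched promoters, no match says only that these letters are not in the window.

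Nr1d1, which encodes the repressor REV-ERBα, was the only core clock gene with a called intron difference. Its 7 introns gave 156 and 171 reads at CT10 and 93 and 97 at CT16, against 155 and 220 at CT22 and 244 and 305 at CT4, a difference of -0.86 ± 0.15 (log2, SE; adjusted p = 0.017 by edgeR). As for Avp, the lowest time was CT16 and the highest CT4, with CT10 and CT22 between and overlapping. The gene count differed by -0.40 ± 0.10 (log2, SE; adjusted p = 0.31 by edgeR). The intron with most reads overlaps Thra, a gene at the same place; for Nr1d1 introns that overlap no other gene the difference was -0.84 and the adjusted p 0.0584 by edgeR, an alternative chosen after the data were seen. Leaving out any of the 4 libraries of the second cycle also ended the call (adjusted p = 0.0524 to 0.0912 by edgeR), as did the oligodendrocyte score as a term (0.134).

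**Figure D2:**
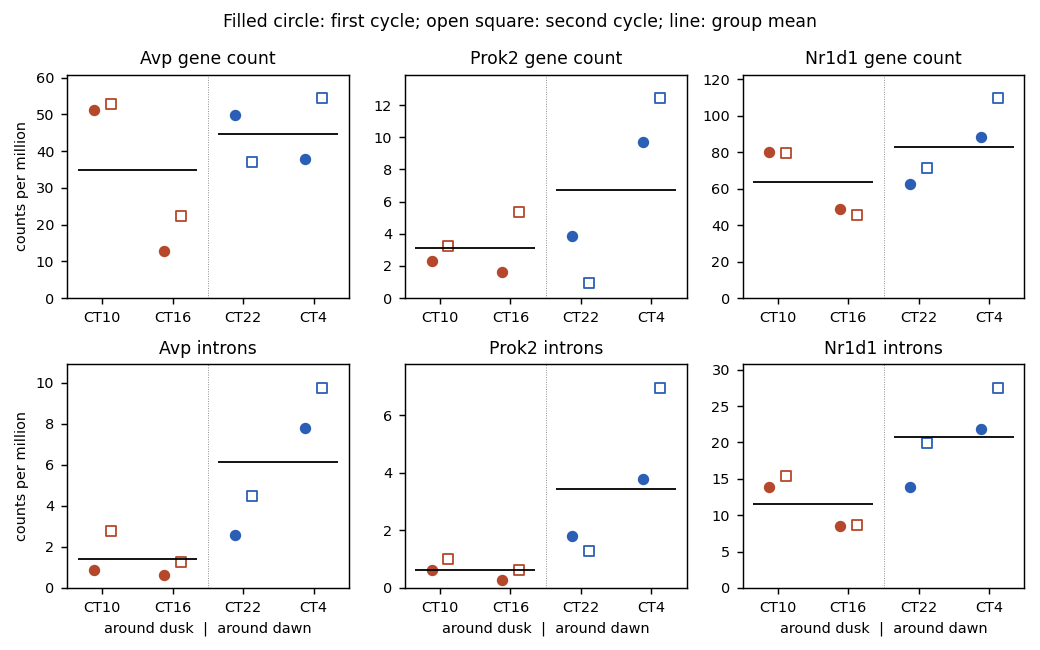
Level in CPM (vertical axis) of Avp, Prok2 and Nr1d1 in each library, gene count above and introns below, with CT10 and CT16 (around dusk) left of CT22 and CT4 (around dawn). Filled circles are the first cycle, open squares the second, and lines are group means; in the intron panels CT4 holds the highest point and CT16 the lowest for all 3 genes, while the Avp gene count is low at CT16 only.

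The introns of Rgs16 and Fabp7 fell as their gene counts did. Rgs16 introns gave 76 and 87 reads at CT10 and 44 and 59 at CT16, against 88 and 170 at CT22 and 260 and 254 at CT4 (difference -1.51 ± 0.19, log2, SE; adjusted p = 0.000538 by edgeR). The call held in all 8 fits that left out a library. Fabp7 introns gave 27 and 14 reads at CT10 and 39 and 38 at CT16, against 75 and 100 at CT22 and 53 and 59 at CT4 (difference -1.30 ± 0.26, log2, SE; adjusted p = 0.0268 by edgeR), a call that held in 2 of those 8 fits. The groups did not overlap for either gene, but the order of times differed: Fabp7 introns were highest at CT22, while the Fabp7 gene count was highest at CT4. Rasl11b introns gave 11, 14, 16 and 16 reads around dusk and 28, 13, 75 and 54 around dawn, and their difference of -1.41 ± 0.40 (log2, SE) did not pass (adjusted p = 0.199 by edgeR).

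Several called introns belonged to genes whose gene count did not pass. Rab6b, a Rab GTPase of neuronal Golgi traffic, had 514, 358, 522 and 298 intron reads around dusk and 898, 695, 699 and 717 around dawn, a difference of -0.83 ± 0.15 (log2, SE; adjusted p = 0.017 by edgeR), beside a gene difference of -0.01 ± 0.08. Rims3, of the presynaptic active zone, had 194, 194, 290 and 191 intron reads around dusk and 358, 344, 411 and 465 around dawn (difference -0.86 ± 0.15, log2, SE; gene -0.08 ± 0.10). Epb4.1l1, which encodes the membrane skeleton protein 4.1N, had 489, 454, 539 and 425 intron reads around dusk and 758, 675, 724 and 734 around dawn (difference -0.60 ± 0.11, log2, SE; gene -0.01 ± 0.09). In each of these 3 genes every dusk library lay below every dawn library in introns. Lhfpl4, needed for GABA-A receptors at inhibitory synapses, differed by -0.81 ± 0.15 in introns and 0.00 ± 0.08 in gene count (log2, SE). Disp2 (-0.75), Slc6a6, the taurine transporter (-0.65), Rundc1 (-0.82), Hs6st1, a heparan sulfate sulfotransferase (-0.86, beside a gene difference of 0.27 ± 0.10), and Ascc2, of the activating signal cointegrator complex (-0.83), showed the same arrangement of lower introns (log2 differences) beside a gene difference that did not pass. These 9 genes are the called intron sums whose ratio of intron to gene count also passed, lower around dusk (adjusted p = 0.0473 to 0.0490 by limma). The ratio reuses the counts by which they were called and is not separate support.

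The ratio test, added after the data were seen, passed for 15 of 12022 genes, 12 lower and 3 higher around dusk, and for 1074 without correction. It passed for 0 genes when CT4 of the first cycle, CT22 of the second, CT4 of the second or CT10 of the second was left out, or with the oligodendrocyte score as a term, for 1 without CT16 of the second cycle and for 2 without CT22 of the first, against 17 and 19 without CT16 or CT10 of the first. Beyond those 9 genes, B3gat1 passed lower (-0.61, log2), and Meg3, an imprinted long noncoding RNA, passed higher (0.27), its introns being level (-0.08) while its gene count was lower (-0.35). As deposited, gene totals and intron totals were each near-equal across libraries. A change in the share of intron reads in the whole library therefore cannot be seen in these ratios.

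The rest of the 22 intron sums that were lower around dusk were not tested for a feature in common. Shank2, a postsynaptic scaffold gene, differed by -0.63 ± 0.13, Trpm3, a cation channel gene, by -0.71 ± 0.14, and Pde2a, a phosphodiesterase gene that degrades cyclic AMP and cyclic GMP, by -0.54 ± 0.11 (log2, SE; adjusted p = 0.0273 to 0.0283 by edgeR). Plekha6 (-0.65), Dip2c (-1.01) and Tub (-0.78) were lower too, as were AK006051 and AK082553, sums that overlap other annotated genes. Shank2, Trpm3, Pde2a, Plekha6, Dip2c and Tub also had a gene difference that did not pass by edgeR, as in the genes whose ratio passed. They are listed apart only because their own ratio did not pass (adjusted p = 0.0831 to 0.525 by limma). For Dip2c 1 intron held 70.3% of the reads, and other called sums also rested largely on 1 intron. Its share was 94.6% for Avp, 90.5% for Cntn2, 90.3% for AK082553, 89.9% for AK006051 and 85.2% for Rab6b. It was 84.1% for Mobp, 74.9% for Lhfpl4 and 72.9% for Rundc1, while Hs6st1 and AK195683 had 1 intron each. The lowest share among the 26 called sums was 21.7%, for C4b. Shank2, Pde2a, Dip2c, Rundc1, Hs6st1, AK082553 and Tub passed the test but lie outside the naming rule and were chosen after their values were seen.

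The 4 intron sums that were higher around dusk were those of Mobp, C4b, Cntn2 and AK195683. Mobp, of the myelin sheath and the oligodendrocyte list, had 2036, 1967, 1198 and 2002 intron reads around dusk and 1057, 1305, 623 and 1050 around dawn (difference 0.84 ± 0.16, log2, SE; adjusted p = 0.0268 by edgeR). C4b, a complement gene, had 206, 138, 94 and 161 intron reads around dusk and 82, 89, 47 and 49 around dawn (difference 1.18 ± 0.23, log2, SE; adjusted p = 0.0268 by edgeR). Cntn2, contactin 2 of axon and myelin contacts, differed by 0.52 ± 0.11, and AK195683, a single interval inside the gene for myelin basic protein (Mbp), by 0.95 ± 0.20 (log2, SE). The lowest dusk library for Mobp, C4b, Cntn2 and AK195683 was CT16 of the first cycle and the lowest dawn library CT4 of the first cycle, the order of the oligodendrocyte marker sum. None of the 4 passed with the oligodendrocyte score as a term (2 intron sums did in all). That score was computed from gene counts of the same libraries, those of Mobp and Mbp among them. It ran from -0.322 to 0.587 around dusk and from -0.942 to 0.0449 around dawn. The fit therefore cannot tell oligodendrocyte content from time of collection for these sums, and a cause was not tested.

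Across the 12022 genes with both tests, intron and gene differences had the same sign in 61.8% (Pearson r = 0.31, Spearman rho = 0.32, across genes, which share libraries and are not independent replicates). The median difference was -0.05 for introns and 0.01 for gene counts (log2). Of 23 called intron sums with a gene test, 18 had a gene difference of the same sign, 10 had an unadjusted gene p under 0.05, and 2, Rgs16 and Fabp7, passed in both. Both measures were taken from the same libraries.

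**Figure D3:**
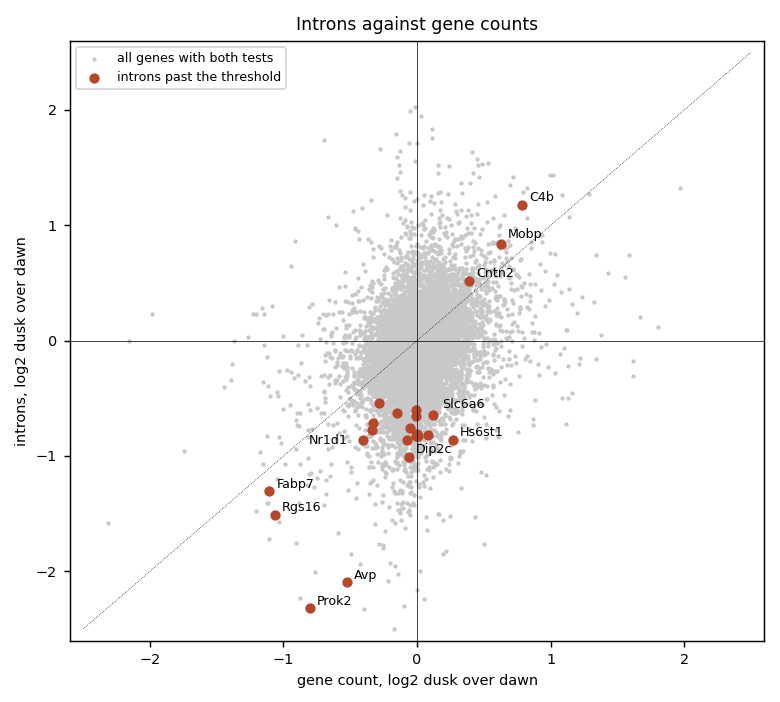
Log2 difference, dusk over dawn, of introns (vertical axis) against the gene count (horizontal axis), 1 grey point per gene; red points are genes whose introns passed the threshold. The red points form a column near 0 on the horizontal axis, with Avp, Prok2, Rgs16 and Fabp7 to its lower left and C4b, Mobp and Cntn2 above; 5 genes beyond the axes are not drawn.

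Splice junctions gave no call by edgeR: 0 of 78212 passed, with 4053 at an unadjusted p under 0.05 (5.18%; 3.48% lower and 1.7% higher around dusk), and DESeq2 called 4 (0.00511%), all lower around dusk, in Fabp7, Huwe1, Gria1 and Ahcyl2. The last intron of Fabp7 as drawn on mm9 (chromosome 10, 57506173-57507928) was spanned by 80 and 64 junction reads at CT10 and 37 and 65 at CT16, against 160 and 107 at CT22 and 180 and 166 at CT4. The groups were apart for this junction, and the difference was -1.33 ± 0.22 (log2, SE; adjusted p = 0.101 by edgeR). All 3 tested Fabp7 junctions (-1.33, -1.30 and -0.96) and all 4 Rgs16 junctions (-1.12, -0.78, -0.77 and -0.54, log2) had the direction of their genes. The junction across the longer Avp intron differed by -0.29 ± 0.18 (log2, SE; adjusted p = 0.971 by edgeR), near the gene count and unlike the reads inside that intron. For the use of a junction relative to the others of its gene, 0 of 8636 genes passed by edgeR and 105 had an unadjusted p under 0.05 (1.22%). The lowest p belonged to Rab3a, Cadm2, Wnk2, Cdc16 and Rtn3.

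Core clock genes spread over both sides of dusk and dawn. Of 20 tested members 10 were higher and 10 lower around dusk by gene count, none passed by edgeR, and the median was -0.01, beside 0.01 over all genes (log2). On the side of dusk lay the repressors Per2 (0.41 ± 0.11), Per3 (0.35 ± 0.09), Cry1 (0.31 ± 0.10) and Gm129 (0.40 ± 0.16), and on the side of dawn Rorb (-0.53 ± 0.11), Nr1d1 (-0.40 ± 0.10), Rora (-0.40 ± 0.13) and Arntl (-0.27 ± 0.11; log2, SE). Their adjusted p ran from 0.267 to 0.586 by edgeR. Of these genes Per2 (0.80), Gm129 (1.06) and Nr1d1 (0.65, log2) were higher by day. They passed the day-night term (adjusted p = 0.00523, 0.00912 and 0.00912 by edgeR). Over all gene counts 16 passed the day-night term and 3 the dusk-dawn term. Per2 had 88.0 and 114 CPM at CT10 and 59.3 and 58.9 CPM at CT16, against 47.0 and 40.3 CPM at CT22 and 67.9 and 87.4 CPM at CT4, so that CT10 was highest and CT22 lowest. Cry1 had 44.5, 52.6, 49.3 and 43.4 CPM around dusk and 38.8, 38.2, 38.3 and 38.0 CPM around dawn, with no overlap. Rorb had 116, 128, 138 and 132 CPM around dusk and 144, 194, 190 and 219 CPM around dawn, again with no overlap. Per1 (-0.05 ± 0.11) and Dbp (0.14 ± 0.11), which peak by day, had small differences on this contrast (log2, SE), and so did Nr1d2 (-0.03), Cry2 (-0.01), Clock (-0.07), Nfil3 (0.00), Hlf (-0.08), Bhlhe41 (0.08), Bhlhe40 (0.15), Tef (0.18) and Npas2 (-0.20). By introns 12 of the 20 were lower, with a median of -0.18 beside -0.05 over all genes (log2). The introns of Rorb, with 5 to 19 reads per library, differed by 0.13 ± 0.61 (log2, SE).

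**Figure D4:**
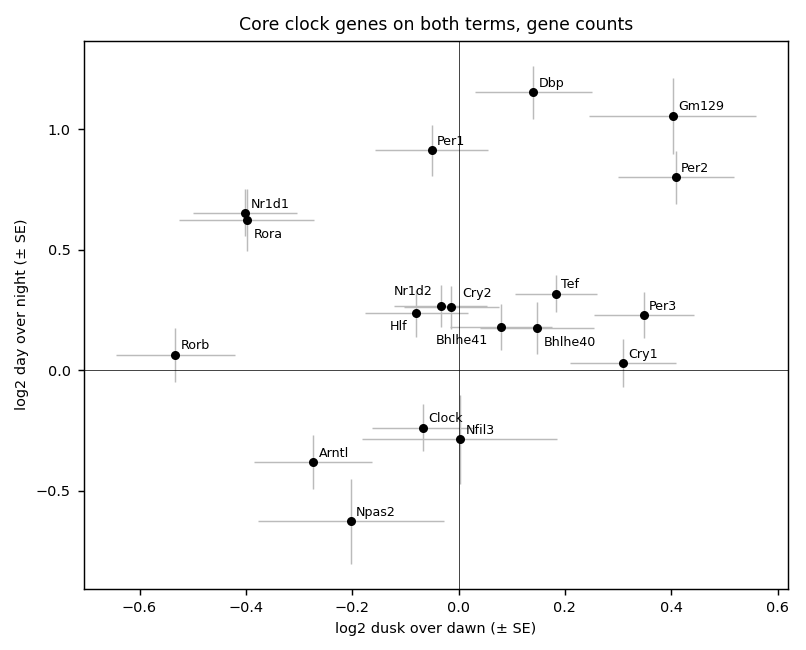
Each point is a named core clock gene, placed by its log2 difference dusk over dawn (horizontal axis) and day over night (vertical axis) in gene counts, with bars of 1 SE. Dbp, Per1, Gm129 and Per2 stand at the top; Nr1d1, Rora and Rorb lie to the left and Per2, Gm129, Per3 and Cry1 to the right.

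The genes next in rank did not pass by edgeR but kept their groups apart. Lower around dusk were Tmem51 (-1.15 ± 0.19; 6.93, 4.85, 9.13 and 6.80 CPM around dusk against 15.1, 20.2, 14.2 and 12.1 CPM around dawn; adjusted p = 0.0614 by edgeR) and B3gat2, a glucuronyltransferase gene of the HNK-1 carbohydrate (-0.55 ± 0.09; 73.5, 79.8, 91.9 and 96.4 CPM around dusk against 118, 155, 110 and 119 CPM around dawn; adjusted p = 0.0791). Hivep1 (-0.53), Nwd1 (-0.47), Zfp783 (-0.82), Add2, which encodes beta-adducin (-0.88), and the nuclear noncoding RNA Malat1 (-0.52) had values below dawn in all 4 dusk libraries (log2 differences; adjusted p = 0.175 to 0.271 by edgeR). On the other side stood Ifit3, an interferon-induced gene (0.83 ± 0.15, log2, SE; 43.1, 29.3, 38.8 and 29.3 CPM around dusk against 21.2, 18.4, 17.9 and 21.2 CPM around dawn; adjusted p = 0.0871 by edgeR). Txnip, whose protein binds thioredoxin and restrains glucose uptake, had 84.9, 75.1, 67.5 and 72.2 CPM around dusk and 56.1, 53.3, 41.5 and 51.6 CPM around dawn (0.57 ± 0.11, log2, SE; adjusted p = 0.175 by edgeR). Sorbs3 (0.63), Gal3st1, a sulfotransferase of myelin lipids (0.93), Adamts10 (0.44), Adamtsl4 (0.96), the chaperone gene Creld2 (0.58), Gpd1 (0.61), the amino acid transporter gene Slc1a5 (0.98) and Kctd3 (0.34) had values above dawn in all 4 dusk libraries (log2 differences; adjusted p = 0.271 to 0.363 by edgeR). These genes were picked for groups that do not overlap. Zfp783 shares its symbol with an overlapping annotated gene that differed by 0.03, so its reads may be split between them. DESeq2 called the gene counts of Tmem51, B3gat2, Hivep1, Nwd1, Zfp783, Add2, Malat1, Ifit3, Txnip, Sorbs3, Gal3st1 and Adamtsl4 and, of genes named above, also those of Rorb, Nr1d1, Meg3 and Tub. The 100 genes with the lowest p among those lower around dusk had a median gene length of 79.8 kb and the 100 among those higher 19.4 kb, beside 26.8 kb for all 11901 genes of at least 5 CPM.

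Most sodium and calcium channel genes had values on the side of dawn. Of 21 sodium and calcium channel genes 18 were lower around dusk by gene count (median -0.12) and 18 by introns (median -0.23), beside 7398 of 15217 genes lower and a median of 0.01 for all gene counts, and 7935 of 13849 and -0.05 for all introns (log2). None of the 21 passed by edgeR; 5 had a lower gene count at an unadjusted p under 0.05 and 8 lower introns. Cacna1d, the L-type calcium channel Cav1.3, had 71.1, 74.2, 79.6 and 79.1 CPM around dusk and 92.0, 105, 94.6 and 113 CPM around dawn, with no overlap (-0.41 ± 0.09, log2, SE; adjusted p = 0.271 by edgeR). Cacna1e (-0.28 ± 0.08) and Scn8a (-0.30 ± 0.09) also had no overlap between groups (log2, SE). Of 24 GABA signalling genes 18 had lower gene counts (median -0.09) and 17 of 22 lower introns (median -0.20, log2), with 0 called. Potassium channel genes were lower in 15 of 27 by gene count (median -0.04) and in 17 of 23 by introns (median -0.10). Glutamate receptor genes were lower in 15 of 22 by gene count (median -0.07) and in 16 of 22 by introns (median -0.06, log2), with 0 called in either list. With the oligodendrocyte score as a term the gene-count medians changed sign for GABA signalling (0.01), potassium channels (0.02) and glutamate receptors (0.05).

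Most peptide and receptor genes of the SCN had lower values around dusk in both measures, and whether introns and gene counts differ in this was not tested. Of 16 with tested introns 12 were lower, beside 7935 of all 13849, with a median of -0.38, and 2 (Avp and Prok2) were past the threshold, beside 22 of 13849 (0.159%). Of 19 with a tested gene count 13 were lower, beside 7398 of all 15217, and 0 passed, with a median of -0.12 (log2). Nms, neuromedin S, had 11.1, 14.6, 14.5 and 11.5 CPM around dusk and 17.2, 26.9, 20.5 and 20.8 CPM around dawn, with no overlap (-0.72 ± 0.17, log2, SE; adjusted p = 0.31 by edgeR). Its introns differed by -1.13, and those of Vip by -0.61 while the Vip gene count differed by -0.15 (log2). Immediate-early genes, which firing and cyclic AMP induce, were lower around dusk in 16 of 21 (median -0.35, 0 called), but the medians were -0.50 in the first cycle and 0.17 in the second (log2). Fosl2 had 12.0, 11.9, 14.5 and 14.8 CPM around dusk and 18.4, 18.3, 25.8 and 31.5 CPM around dawn (-0.79 ± 0.18, log2, SE; adjusted p = 0.272 by edgeR).

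The oligodendrocyte, microglia, meninges and glucocorticoid lists lay on the side of dusk, while astrocyte markers did not (6 of 11 higher, median 0.02, beside 0.01 over all genes, log2). All 14 oligodendrocyte markers had positive gene differences (median 0.57), as did all 17 glucocorticoid-responsive genes (median 0.33). So did 8 of 9 meninges markers (0.46) and 9 of 10 microglia markers (0.25, log2), beside 7819 of all 15217 genes. By gene count 0 were called by edgeR in any of these lists. Introns were higher in 12 of 14 oligodendrocyte, 9 of 15 glucocorticoid, 5 of 8 meninges and 5 of 7 microglia genes, beside 5914 of all 13849. The meninges gene-count median was 0.87 in the first cycle and 0.19 in the second (log2). Tsc22d3, which encodes the glucocorticoid-induced leucine zipper, had 132, 139, 105 and 127 CPM around dusk and 101, 109, 76.4 and 62.1 CPM around dawn (0.55 ± 0.14, log2, SE; adjusted p = 0.363 by edgeR). The groups overlapped by 1 library on each side. Adding the oligodendrocyte score moved the medians to 0.02 for glucocorticoid-responsive genes, 0.04 for microglia and -0.39 for meninges (log2), the last with a change of sign. The same term left the channel list at -0.08, peptides and receptors at -0.19 and immediate-early genes at -0.47. Cytosolic ribosomal protein genes were higher in 34 of 35 by small amounts (median 0.12, or 0.03 with the score as a term, log2), with 0 called.

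**Figure D5:**
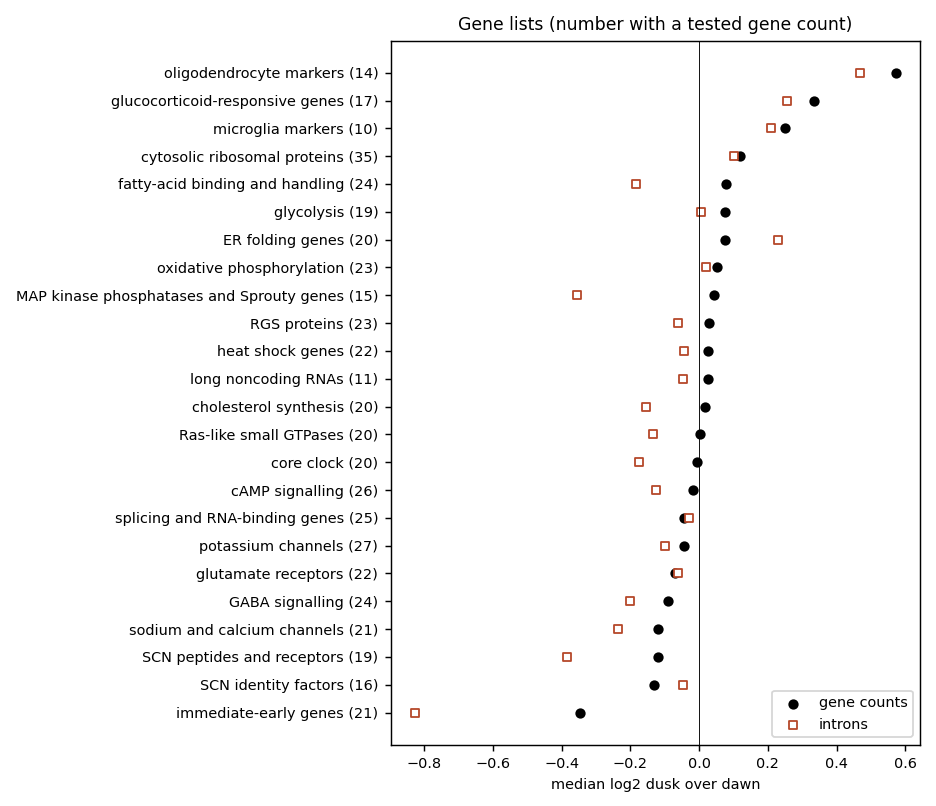
Median log2 difference, dusk over dawn (horizontal axis), of each pathway list and of the oligodendrocyte and microglia marker lists (vertical axis, with the number of members with a tested gene count) for gene counts (black circles) and introns (open red squares). Among the lists drawn, oligodendrocyte markers and glucocorticoid-responsive genes lie farthest to the right and immediate-early genes farthest to the left by gene count, and the introns of peptides and receptors at -0.38.

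The cycles, which share no library, gave different gene rankings. Among 11901 genes of at least 5 CPM the dusk-dawn differences of the first and second cycle had r = 0.11 and rho = 0.13 across genes, which are not independent, and 55.2% had the same sign. Of the 100 genes highest around dusk in the first cycle 79 were also higher in the second (median 0.25, log2), whereas of the 100 lowest 49 were also lower (median 0.00). Chosen in the second cycle, 53 of the 100 highest and 69 of the 100 lowest had the same sign in the first. Over all these genes 51.8% were higher around dusk in the first cycle and 49.2% in the second. For introns 63 of the 100 highest and 55 of the 100 lowest in the first cycle kept their sign, and 51 and 85 of those chosen in the second. Beside these, 44.8% of all 7305 intron sums of at least 5 CPM were higher around dusk in the first cycle and 44.3% in the second. The sign was the same in both cycles for 55.6% of them. By a test of the difference between cycles, 0 of 15217 genes passed by edgeR, 761 had an unadjusted p under 0.05 (5%) and DESeq2 called 8. Gal, the galanin gene, was lowest in rank with Hpcal1 (adjusted p = 0.085 for each by edgeR): Gal differed by -0.90 in the first cycle and 1.29 in the second (log2). Without CT4 of the first cycle 20 genes passed this test, without CT22 of the first 11, without CT4 of the second 10, and without CT10 of the first or CT22 of the second 2 each.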

How the data were processed

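Polyadenylated RNA was sequenced with a stranded kit and aligned with STAR 2.3.0e to mm9, per the submitters' processing notes; how reads were counted and libraries brought to near-equal totals is not given in the sources used here. The authors deposited read counts per sense gene, intron and junction, beside JTK p-values and q-values and a phase in hours, which were not used for any result. Antisense and exon tables were not used. The quasi-likelihood test of edgeR 4.0.16 in R 4.3.3, with TMM scaling of the gene table, was run on features with at least 10 reads in 2 libraries, with terms for dusk against dawn and day against night and 5 residual degrees of freedom, and p-values were adjusted by Benjamini-Hochberg over all features. Introns were summed per symbol, from 137091 of 176269 introns holding 49.2% of intron reads. Junction usage was tested with edgeR's diffSpliceDGE. Ratios of introns to gene counts were tested with limma 3.58.1 on log2 values with a prior count of 2. DESeq2 1.42.0 was an alternative. The analysis was tested on simulated data. Named genes were those past the threshold, the 10 higher and 10 lower with the lowest p, at least 5 CPM and groups that did not overlap, the core clock, and up to 3 members of each of 38 lists; for introns, up to 10 past the threshold and 5 more per direction. Members and lists were chosen with earlier results of these data known. Column names carry 1 flow-cell tag, so no sequencing batch could be separated; the CT10 column of the first cycle has an extra letter. Some genes that the rule names are not reported here.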

Additional observations from a re-analysis of the deposited data

Results flagged for a closer look

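Of 188 groups of 4 libraries checked, 10 (5.32%) held a library far from the other 3, near the 1 in 20 that chance gives. CT16 of the first cycle was the lowest dusk library for the gene count of Gpd1 (16.6 CPM, others 23.8 to 24.9) and of Slc1a5 (5.02 CPM, others 7.54 to 7.78) and for Mobp introns (109 CPM, others 177 to 181), and the highest for Rims3 introns (26.5 CPM, others 17.1 to 17.4). CT10 of the first cycle was the highest dusk library for summed blood markers (254 CPM, others 112 to 134) and summed arcuate neuron markers (84.6 CPM, others 14.7 to 21.4). Among dawn libraries, CT22 of the first cycle was highest for summed pituitary markers (119 CPM, others 2.64 to 6.91) and for Rab6b introns (80.4 CPM, others 62.7 to 64.5). CT4 was lowest in the first cycle for C1qa, a microglial complement gene (19.5 CPM, others 23.4 to 23.7), and in the second for Gpd1 (13.2 CPM, others 14.9 to 15.2). The part of these libraries' tissue content in the values was not tested.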

How the results depend on the processing

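Counts past the threshold moved with the processing, and the cause was not tested. Fits with a library left out also hold fewer samples. For genes (3 as reported) they were 1 without the day-night term, 6 with a cycle term, 243 with no filter on low counts (161 higher, 82 lower), 4 with the oligodendrocyte score, 39 by DESeq2 and 3 to 60 with a library left out. The same 3 genes were among the calls in every setting run except that without the day-night term, which kept 1. For introns (26) they were 13 without the day-night term, 125 with no filter, 2 with the oligodendrocyte score, 48 by DESeq2, 17 with the table's own scaling and 1 to 68 with a library left out. For junctions (0) they were 54 with no filter, 1 with the oligodendrocyte score, 4 by DESeq2 and 0 to 12 with a library left out. For junction usage (0) they were 1 without the day-night term, 8 with no filter and 0 to 1 with a library left out. For the difference between cycles (0) they were 57 with no filter, 8 by DESeq2 and 0 to 20 with a library left out. For the ratio (15) they were 0 with the oligodendrocyte score and 0 to 19 with a library left out. The Dcn gene, a meninges marker, changed sign with the oligodendrocyte score (-0.024, log2). No paired analysis was possible because the labels give no replicate numbers that would match single dusk and dawn libraries; the cycle term above is the only blocking that was run. Intron sums of few reads, such as those of Avp and Prok2, limit what these depths can show.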
